A study of Mus musculus with 4 samples.

Results

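Cycling mural endocardium was taken as the cells of the inner lining of the ventricular wall that carried the RNA of proliferating cells. Of 45551 barcodes in 4 droplet libraries of E14.5 mouse ventricles, 871 were members. They were chosen by counts of unique molecular identifiers (UMIs, each 1 captured RNA molecule) with no clustering. A barcode had to hold 1000 to 7000 genes, at most 10% mitochondrial UMIs, under 0.5% cardiomyocyte UMIs (*Tnnt2*, *Actc1*, *Tnnc1* and *Ttn*) and at least 4 UMIs of the endothelial genes *Pecam1*, *Cdh5*, *Emcn* and *Egfl7*. *Fabp4*, high in coronary endothelium, had to stay under 0.1% of UMIs. At least 2 UMIs of *Npr3*, *Ednrb* and *Adgrg6* were required, and more than the sum of *Prox1*, *Nfatc1* and *Wnt4*, which mark valve endocardium. These steps gave the mural gate of 4603 cells, and the members were its cells with at least 2 UMIs of *Top2a* and *Mki67* together, so 3732 cells of the gate were non-cycling by this rule. Values of the genes named here describe the choice and are given without a test. The mitochondrial genes, which the rule limits only as a sum, stayed among the genes tested.

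The 2 control libraries were Tie2Cre;*Ets1* fl/+ and the 2 *Ets1* eKO libraries Tie2Cre;*Ets1* fl/fl, on a C57BL/6 background and untreated. Each library pooled ventricles of 3 embryos of unrecorded sex, and the labels place all of them in batch 1. Tie2Cre acts in endothelium, endocardium and blood-lineage cells, every embryo carried it, and the controls also carried 1 floxed allele. Apart from the fit with sex as a term, the library was the unit of every test. This gave n = 2 per group, and the p-values measure the spread between these pools.

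The endocardium is the endothelial layer that faces the blood inside the heart. Its mural part covers the trabeculae, uses Notch signalling between its own cells, supplies neuregulin and matrix to the myocardium beneath, and grows by division of its own cells while the ventricular wall thickens. *Npr3*, the natriuretic peptide clearance receptor, marks this layer, *Top2a* encodes the topoisomerase that untangles replicated DNA, and *Mki67* the Ki-67 protein that coats mitotic chromosomes. *Ets1* encodes a transcription factor of the ETS family that endothelial cells express throughout the vessels and the heart.

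Control replicate 1 held 148 members, control replicate 2 held 136, *Ets1* eKO replicate 1 held 196 and *Ets1* eKO replicate 2 held 391. Members were deeper than the non-cycling cells of their library, with medians of 12312.5, 12104, 10686.5 and 7025 UMIs against 6741.5, 7144, 6631 and 4221.5, in the order just given. *Ets1* eKO replicate 2 was the shallowest library in both classes. The members summed to between 1854667 and 3176434 UMIs per library, out of library totals of 76931208 to 124140739. At least 1 *Npr3* UMI was found in 86.5% to 91.3% of members per library, with medians of 3 to 7.5 UMIs, and the median member held 6 to 8.5 *Top2a* and 3 to 4 *Mki67* UMIs. *Npr3* stood at 475 to 637 counts per 1000000 UMIs of its class and library (CPM) in the summed members, 648 to 899 CPM in non-cycling cells, 20.3 to 54.6 CPM in the coronary-type gate (*Fabp4* at or above its limit) and 57.7 to 91.3 CPM in the valve-type gate (*Prox1*, *Nfatc1* and *Wnt4* at or above the mural genes).

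Genes outside the rule carried the endothelial identity too. A list of 13 endothelial genes that includes *Tek*, *Tie1*, *Kdr* and *Eng* summed to 3552 and 3624 CPM in the members of the controls and to 3265 and 3384 CPM in those of *Ets1* eKO. Cardiomyocyte genes outside the gate, 13 in all, summed to 548 to 1390 CPM, fibroblast and mesenchyme genes to 776 to 1152 CPM, valve genes to 239 to 284 CPM, smooth muscle and pericyte genes to 136 to 244 CPM, coronary genes to 123 to 148 CPM (with *Car4* at 0), immune genes to 12.2 to 148 CPM and epicardial genes to 16.7 to 32.9 CPM. Erythroid genes differed most between libraries, from 224 CPM in control replicate 2 to 7287 CPM in *Ets1* eKO replicate 2. A doublet score marked 8.82% to 10.7% of members and 2.97% to 4.40% of non-cycling cells per library. Pairs of libraries shared 19 to 47 barcodes, none a member in both.

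The libraries also differed in the sex of their cells. *Xist* UMIs without Y-linked ones were present in 0% of the members of control replicate 1, 46.3% of control replicate 2, 64.3% of *Ets1* eKO replicate 1 and 95.9% of *Ets1* eKO replicate 2. Control replicate 1 was thus male and *Ets1* eKO replicate 2 nearly all female by these counts, so sex and genotype are partly confounded. A fit with sex as a term took separate sums over cells with *Xist* UMIs alone and cells with Y-linked UMIs alone. Control replicate 2 (63 and 49 members) and *Ets1* eKO replicate 1 (126 and 49) each entered as a female and a male sum. The fit had no term for the library, so its calls treat sums of the same library as independent. In it, the named calls of *Igfbp3*, *Efnb2* and *Rian* in cycling cells were lost. Of the 89 genes called there over all genes (below), 59 were called again. *Xist* itself did not pass the test in the members (590 CPM in control replicate 2, with none in control replicate 1, against 553 and 936 CPM in *Ets1* eKO, adjusted p = 0.654).

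The boundary of the rule is gradual. Cells of the gate with exactly 1 *Top2a* or *Mki67* UMI, just outside, numbered 113, 71, 133 and 175 (both controls first, by replicate), and their genes of a 54-gene G2 and mitosis list (53 in the files, neither *Top2a* nor *Mki67* among them) summed to 1475, 1366, 1697 and 2347 CPM. Cells with exactly 2 numbered 28, 14, 34 and 60, with list sums of 2560, 2274, 2863 and 5333 CPM. Cells with 4 or more numbered 109, 110, 152 and 294 and reached 11583, 11008, 11513 and 13187 CPM.

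The first question was what share of the mural gate was cycling, and whether *Ets1* eKO changed it. With all UMIs, members made up 14.0% (exact 95% binomial interval 12.0% to 16.3%) and 17.9% (15.2% to 20.8%) of the gate in control replicates 1 and 2, and 19.9% (17.4% to 22.5%) and 21.7% (19.8% to 23.7%) in *Ets1* eKO replicates 1 and 2. The 2 *Ets1* eKO shares exceeded the 2 control shares. The means were 15.9% ± 2.73 (SD, n = 2) and 20.8% ± 1.33 (SD, n = 2), a difference of 4.85 percentage points with an exact two-sided permutation p = 0.333, the smallest that 2 against 2 libraries allow. The intervals cover counting error only.

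Since a deeper cell reaches 2 UMIs more easily, each cell was also thinned to 4000 UMIs. The shares became 11.2% and 14.3% in control libraries against 15.7% and 25.7% in *Ets1* eKO, with no overlap (12.8% ± 2.19 against 20.7% ± 7.08, SD, n = 2; difference 7.92 points, exact permutation p = 0.333). The thinning left out 101, 62, 81 and 658 shallower cells of the gate, among them 4, 1, 5 and 46 members, so it drew most on *Ets1* eKO replicate 2. Thinning each library by 1 factor to the same median depth instead, chosen after seeing the data, left out no cell and gave 11.7%, 16.2%, 17.4% and 21.7%, a difference of 5.63 points (exact permutation p = 0.333). The groups did not stay apart in each setting. At 2000 UMIs they overlapped (8.77% ± 2.52 against 12.2% ± 2.77, SD, n = 2; difference 3.46 points, exact permutation p = 0.667), as they did at 4000 UMIs with at least 3 *Top2a* and *Mki67* UMIs (5.81 points, exact permutation p = 0.667) and with at least 5 S phase UMIs as the measure of cycling (14.4 points, exact permutation p = 0.667). That S phase measure is a broader one, which counted 34.7% of control and 49.0% of *Ets1* eKO cells of the gate as cycling. With at least 5 G2 and mitosis UMIs instead, the groups did not overlap. The means were 48.1% ± 0.245 against 59.8% ± 12.3 (SD, n = 2; difference 11.7 points, exact permutation p = 0.333). By the stated rule at 4000 UMIs, the difference was 2.92 points without *Ets1* eKO replicate 2 and 12.9 points without *Ets1* eKO replicate 1.

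**Figure D1:**
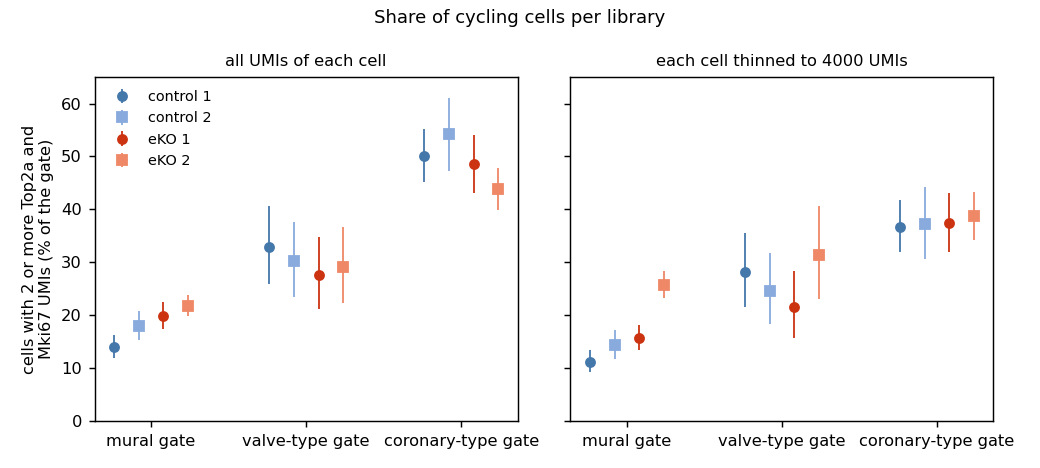
Percent of cells with at least 2 *Top2a* and *Mki67* UMIs in the mural, valve-type and coronary-type gates, 1 point per library with exact 95% binomial intervals, with all UMIs and after thinning each cell to 4000 UMIs. The mural gate lies lowest in each library, and its thinned shares run from 11.2% in control replicate 1 to 25.7% in *Ets1* eKO replicate 2.

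The mural gate held the lowest share of cycling cells of the 3 endothelial gates. At 4000 UMIs, 36.7%, 37.2%, 37.4% and 38.7% of coronary-type cells and 28.1%, 24.6%, 21.5% and 31.3% of valve-type cells passed the same count, with the libraries in the same order. The mural share was lower than the coronary-type share in 4 of 4 libraries, by 13.0 to 25.5 points (mean difference -20.8 ± 5.4 SD, n = 4), and lower than the valve-type share in 4 of 4, by 5.63 to 16.9 points (mean difference -9.66 ± 5.30 SD, n = 4). Each exact sign-flip permutation p was 0.125, the smallest that 4 libraries allow. At 4000 UMIs, *Ets1* eKO against control differed by 1.11 points in the coronary-type gate (exact permutation p = 0.333) and by 0.0554 points in the valve-type gate (exact permutation p = 1). This left out 128 coronary-type and 50 valve-type cells of *Ets1* eKO replicate 2. With all UMIs the coronary-type shares were 50.1% and 54.2% in control libraries against 48.5% and 43.8% in *Ets1* eKO. The valve-type shares were 32.9% and 30.2% against 27.5% and 29.1%. In these gates both *Ets1* eKO shares then lay below both control shares.

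Members were also compared by phase list. Neither list holds *Top2a* or *Mki67*, but both genes were higher in the members with more G2 and mitosis UMIs (in control replicate 1, *Top2a* at 712 against 302 CPM), so the choice of members bears on the balance of phases, which is not read as a result. The 40-gene S phase list, with *Pcna*, the sliding clamp of the replication fork, and the *Mcm* helicase genes, exceeded the G2 and mitosis list in 18.8% and 22.2% of thinned members of the controls and in 23.6% and 19.7% of those of *Ets1* eKO (20.5% ± 2.46 against 21.6% ± 2.72, SD, n = 2). The groups overlapped and the difference of 1.15 points had an exact permutation p = 0.667. *Ccnd2*, a D-type cyclin of G1, stood at 551 and 564 CPM in the S phase members of the controls and 741 and 633 CPM in those of *Ets1* eKO, against 273, 313, 399 and 429 CPM in the members with more G2 and mitosis UMIs. It was thus higher in the S phase members of each library.

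Genes that separated members from the non-cycling cells of the same gate are described without a test, since the rule chose on this contrast. Of 4058 genes with at least 50 CPM in the higher class, 164 were over 2-fold higher in the members of all 4 libraries and 1 (*Nkain2*) over 2-fold lower. The 8 highest all act on DNA packing, the spindle or the end of mitosis. *Nusap1*, which bundles spindle microtubules near chromatin, stood at 229, 246, 283 and 260 CPM in the members (controls first, then *Ets1* eKO), against 4.16, 3.31, 3.89 and 6.38 CPM in their non-cycling cells. Its log2 ratio (CPM + 1) was 5.15 to 5.86 over the libraries. *Hist1h1b*, a linker histone made in S phase, had log2 ratios of 5.09 to 6.36, *Prc1*, of the central spindle, 5.06 to 5.22, *Cenpf*, of the kinetochore, 5.03 to 5.94, and *Hmmr*, a spindle-binding hyaluronan receptor, 4.84 to 5.63. *Kif11*, the motor that separates spindle poles, had 4.72 to 6.01, *Ube2c*, a ubiquitin-conjugating enzyme of the anaphase-promoting complex, 4.64 to 5.41, and *Aspm*, of the spindle pole, 4.53 to 5.23. Histone transcripts of the replication-dependent kind mostly lack a poly(A) tail, which the libraries select for, so the level of *Hist1h1b* is not comparable with the other genes.

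**Figure D2:**
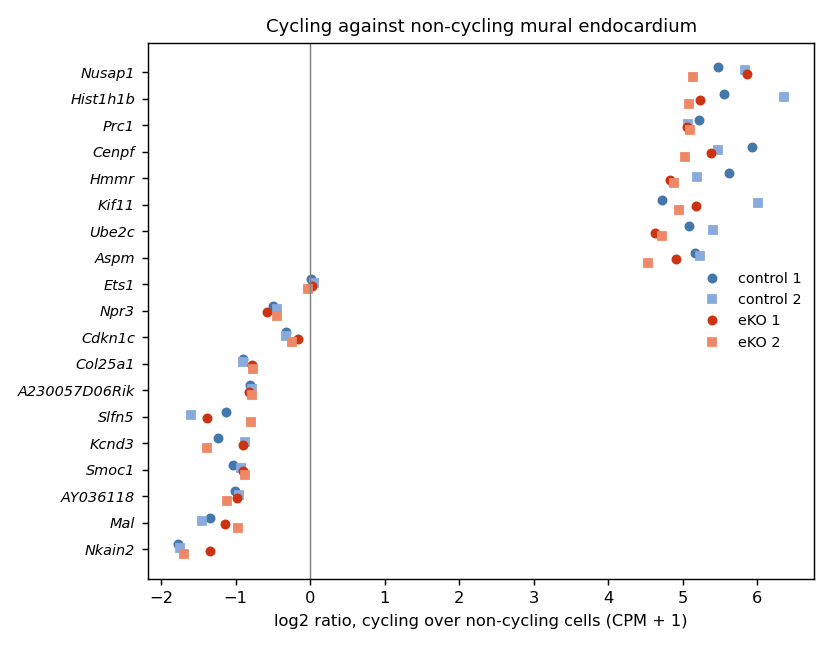
Log2 ratio of CPM + 1 in cycling over non-cycling mural endocardium, 1 point per library, for the genes with the highest and the lowest ratios and for *Ets1*, *Npr3* and other named genes. *Nusap1* lies between 5.15 and 5.86 and *Nkain2* between -1.78 and -1.35, while *Ets1* lies between -0.03 and 0.05.

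Of the 4058 genes, 1169 were higher and 1256 lower in the members of all 4 libraries, and the lower ones differed by less. *Nkain2*, whose product interacts with the sodium pump, had log2 ratios of -1.78 to -1.35, and *Mal*, a membrane raft protein gene, -1.45 to -0.97. *Smoc1*, a matricellular protein gene, had -1.04 to -0.87, *Kcnd3*, a potassium channel gene, -1.39 to -0.87, and *Slfn5* -1.60 to -0.80. The remaining 3 of the 8 lowest were *AY036118* (-1.12 to -0.95), *A230057D06Rik* (-0.82 to -0.77) and *Col25a1* (-0.91 to -0.77). *Npr3* was lower in the members of each library (-0.58 to -0.44), as was *Cdkn1c*, a CDK inhibitor (-0.33 to -0.16). By list sums, members held 7.55 to 8.72 times the G2 and mitosis level and 2.36 to 3.21 times the S phase level of their non-cycling cells, 1.15 to 1.38 times the glycolysis level, 1.05 to 1.23 times the immediate early and heat shock level and 1.08 to 1.52 times the level of the valve list. The last marks another cell type, and its part in the differences between members and non-cycling cells was not tested. Sums were below the non-cycling level in 4 of 4 libraries for Notch genes (0.840 to 0.940 times), secreted growth factors and matrix (0.858 to 0.897), imprinted growth genes (0.791 to 0.872), neural-type genes (0.762 to 0.882), the mitochondrial genome (0.879 to 0.913), the endothelial list (0.866 to 0.880), G1 cyclins and CDK inhibitors (0.860 to 0.933), SoxF, Klf and Gata factors (0.885 to 0.954), endothelial receptors and junctions (0.869 to 0.875) and the cardiomyocyte list (0.761 to 0.845). All are shares of the UMIs of a class, so a higher share of some genes leaves less for the rest. Mitochondrial UMIs were also capped at 10% by the rule, in both classes.

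Promoters of these genes were read because the mitotic genes moved together. CCAAT boxes, which the factor NF-Y binds, are a known feature of mitotic promoters. RefSeq promoters (GRCm38.p6, the 250 bases before the start) matched 44 of 54 G2 and mitosis genes, and 31 of these (70.5%) held CCAAT on either strand, against 41.2% of the 8545 matched genes tested in cycling cells and 37.5% of all 27025 promoters. The letters TTTGAA on either strand, the core of the element named CHR, were in 34.1% of the list, 12.7% of tested genes and 18.3% of all promoters. In the S phase list, CCAAT was in 21 of 32 matched genes (65.6%), so it was not particular to the G2 and mitosis list, and TTTGAA was in 15.6%. Among the 8 highest genes, 6 of the 7 with a matched promoter held CCAAT. A match is a description of letters and not of binding. The 3 shown have several boxes, with *Cenpf* (chr1:189688087-189688336, minus strand) holding 2, *Hmmr* (chr11:40733438-40733687, minus strand) 5 and *Ube2c* (chr2:164769679-164769897, plus strand, 219 bases) 6. Capitals mark CCAAT or its reverse complement ATTGG, and the overlapping pair in *Ube2c* counts as 2.
Cenpf: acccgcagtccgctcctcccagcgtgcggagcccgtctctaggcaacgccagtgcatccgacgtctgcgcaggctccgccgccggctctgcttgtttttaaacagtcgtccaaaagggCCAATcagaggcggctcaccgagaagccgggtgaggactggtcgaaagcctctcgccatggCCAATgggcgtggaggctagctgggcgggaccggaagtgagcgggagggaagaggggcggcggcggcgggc
Hmmr: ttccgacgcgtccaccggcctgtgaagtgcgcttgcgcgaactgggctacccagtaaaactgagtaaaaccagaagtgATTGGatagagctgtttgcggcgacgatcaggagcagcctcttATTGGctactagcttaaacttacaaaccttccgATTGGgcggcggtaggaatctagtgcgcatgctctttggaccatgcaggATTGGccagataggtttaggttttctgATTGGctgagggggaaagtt
Ube2c: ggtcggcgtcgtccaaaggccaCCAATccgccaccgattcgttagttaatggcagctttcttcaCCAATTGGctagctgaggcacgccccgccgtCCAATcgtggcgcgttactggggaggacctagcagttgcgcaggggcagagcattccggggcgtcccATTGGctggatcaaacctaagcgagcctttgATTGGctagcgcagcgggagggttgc

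The second question was which genes *Ets1* eKO changed in the cycling cells. Counts summed over the members of a library were tested with edgeR over 10826 genes, and 89 (0.822%) passed a Benjamini-Hochberg adjusted p of 0.05. Of these 38 were higher (0.351% of genes tested) and 51 lower (0.471%) in *Ets1* eKO. Scaling by total counts gave 27 and 53. An unadjusted p under 0.05 was reached by 1311 genes. Fold changes below are fitted log2 values with their standard error (SE), positive where *Ets1* eKO was higher.

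*Ets1* (ENSMUSG00000032035, chr9:32636221-32757820, plus strand, GRCm38) checks the labels. It stood at 286.6 and 263.7 CPM in the members of control replicates 1 and 2 and at 120.5 and 90.0 CPM in those of *Ets1* eKO replicates 1 and 2. Both *Ets1* eKO libraries lay far below both controls, and it fell by 1.33 (SE 0.159, adjusted p = 0.00242). At 4000 UMIs, 59.0% and 63.0% of the members of the controls held an *Ets1* UMI, against 33.0% and 30.4% in *Ets1* eKO. Trabecular cardiomyocytes (at least 2% cardiomyocyte UMIs and at least 20 *Nppa* and *Bmp10* UMIs), which should lack the gene, gave 1.59% to 3.54%, at unthinned medians of 10188 to 16262 UMIs against 7488 to 12564 in the members. The libraries read the 3' end of transcripts, and which exons are floxed is not given in the sources used here, so the remaining UMIs do not measure intact *Ets1* RNA. *Ets1* fell to a similar level in non-cycling cells (-1.29, SE 0.15, adjusted p = 0.00134).

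The largest rise among the genes named by rule was next to *Ets1*. *Gm3331*, a long non-coding RNA gene (chr9:32813734-32834104, plus strand, GRCm38) that starts 55.9 kb past the end of *Ets1* in the GENCODE annotation, had 0.506 and 0.539 CPM in the controls, which is 1 UMI each, and 55.6 and 40.6 CPM in *Ets1* eKO (6.44, SE 0.445, adjusted p = 3.1e-05). Summed over the group, the ratio was 90.4 with an exact 95% counting interval of 24.8 to 750 on 2 UMIs in the controls and 267 in *Ets1* eKO. The same was seen outside the members: it stood at 0.170 to 2.31 CPM in the coronary-type and valve-type gates of the controls and at 44.1 to 56.6 CPM in those of *Ets1* eKO, against 0 in the trabecular cardiomyocytes of both controls and 1.04 and 1.40 CPM in those of *Ets1* eKO. The other tested genes within 1 Mb of *Ets1* did not pass: *Fli1*, its ETS neighbour, had -0.18 (adjusted p = 0.694) and *Arhgap32* -0.43 (adjusted p = 0.448). RefSeq gives *Gm3331* nearer starts, the nearest just after chr9:32782896-32783145. Transcripts of the deleted and the intact allele cannot be told apart in these counts.

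*Mt1*, a metallothionein that binds zinc and copper, had the next largest rise of the genes named by rule. It stood at 7.09 and 8.09 CPM in control libraries against 219.7 and 205.6 CPM in *Ets1* eKO (4.86, SE 0.200, adjusted p = 1.5e-07). In *Ets1* eKO it stood at 243 and 181 CPM in the coronary-type gate, against 5.78 and 10.6 CPM in the controls. In the valve-type gate it stood at 69.2 and 73.2 CPM in control libraries against 357 and 331 CPM in *Ets1* eKO. Trabecular cardiomyocytes had 139 and 121 CPM in control libraries against 181 and 135 CPM in *Ets1* eKO, so their level was above that of control endocardium. *Mt2*, another metallothionein gene, stayed near the floor in the members, with 2.03 and 2.70 CPM in control libraries and 0 in *Ets1* eKO replicate 1. In *Ets1* eKO replicate 2 it had 2.32 CPM in the members with more G2 and mitosis UMIs and 0 in those with more S phase UMIs.

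*Dlk1*, a membrane-bound, paternally expressed relative of the Notch ligands, stood at 43.5 and 55.0 CPM in the members of the controls and at 180.2 and 272.6 CPM in those of *Ets1* eKO (2.27, SE 0.217, adjusted p = 0.00058). The groups did not overlap. At 4000 UMIs, 15.3% and 14.1% of members held a *Dlk1* UMI in control libraries against 40.8% and 50.1% in *Ets1* eKO. The background was 0.296% to 2.27% of trabecular cardiomyocytes. *Dlk1* (chr12:109452823-109463336) lies beside *Meg3* (chr12:109541001-109571726) and *Rian* (chr12:109603940-109661716), non-coding genes of the same imprinted cluster that are expressed from the maternal allele. *Meg3* had 105 and 131 CPM in control libraries against 225 and 222 CPM in *Ets1* eKO, and it rose by 0.98 (adjusted p = 0.0108). *Rian* had 16.7 and 10.8 CPM in control libraries against 31.4 and 36.2 CPM in *Ets1* eKO, and it rose by 1.36 (adjusted p = 0.0253, lost in 4 of 17 alternatives). These 3 were the members that passed among 15 tested imprinted growth genes, with a list median of 0.10 against 0.01 over all genes, and *Igf2* had -0.04 (adjusted p = 0.958).

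**Figure D3:**
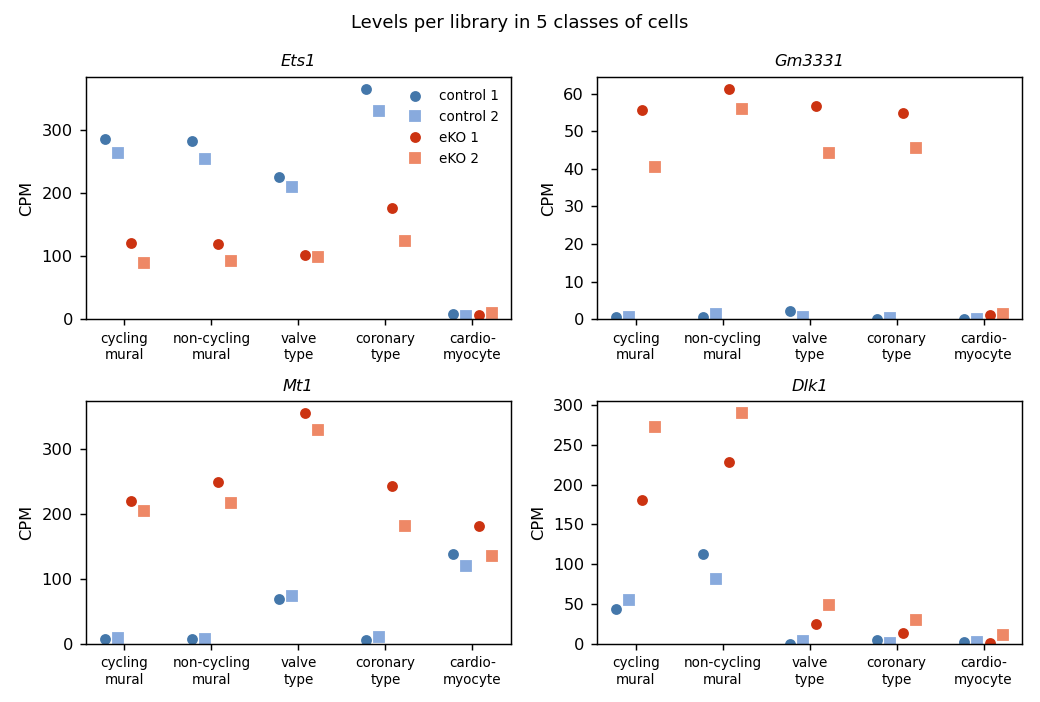
CPM per library in cycling mural, non-cycling mural, valve-type, coronary-type and trabecular cardiomyocyte cells for *Ets1* and genes named for their change, 1 point per library. *Gm3331* is at 40.6 to 61.3 CPM in every endothelial class of *Ets1* eKO and at most 1.40 CPM in cardiomyocytes.

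Several risers are known as genes that interferon induces. *Isg15*, a ubiquitin-like protein gene, had 8.61 and 4.31 CPM in control libraries against 33.9 and 33.4 CPM in *Ets1* eKO (2.42, SE 0.292, adjusted p = 0.00242). *Ifi27l2a* rose by 2.29 (adjusted p = 0.00742, but 0.0723 with marked doublets removed), *Bst2*, the tetherin gene, by 1.24 (adjusted p = 0.00537) and *Ifitm3*, which blocks virus entry, by 0.92 (adjusted p = 0.0117). Named after their values were seen, *Oasl2* (2.72), *Rtp4* (1.47) and *Ifi27* (0.82) passed too, and *Ifit1* had 0 UMIs in the members of both controls and a mean of 5.79 CPM in *Ets1* eKO, at least 7.39-fold higher than the floor of 3 counts over the controls together. These genes were not fixed as a list, so no share is read from them. *Isg15* stood at 4.93 and 2.18 CPM in the coronary-type gate of the controls and 5.94 and 5.06 CPM in that of *Ets1* eKO. In the valve-type gate it stood at 1.73 and 1.19 against 8.76 and 4.20 CPM (2 to 13 UMIs per library). Non-cycling mural cells had 15.96 and 9.54 CPM of *Isg15* in control libraries against 49.6 and 53.4 CPM in *Ets1* eKO. *Bst2* rose outside the mural gate too, from 162 and 115 to 207 and 250 CPM in the coronary-type gate. In the valve-type gate it went from 43.8 and 32.7 to 56.0 and 108 CPM. *Ifitm3* overlapped between the groups in both of these gates.

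Other named risers are given in order of size and are not read as a group. *Lyve1*, a hyaluronan receptor of lymphatic endothelium, had 7.59 and 10.8 CPM in control libraries against 45.2 and 47.2 CPM in *Ets1* eKO (2.39, SE 0.244, adjusted p = 0.00088). It was the only one of 4 lymphatic genes with enough counts to test, and the 4 summed to 12.7 and 16.2 CPM in control libraries against 47.6 and 53.2 CPM in *Ets1* eKO. *Cyp17a1*, a steroid hydroxylase gene, rose by 2.39 (12.2 and 7.01 to 55.6 and 42.2 CPM, adjusted p = 0.00167). *Col15a1*, a basement membrane collagen, rose by 2.24 (adjusted p = 0.00092), *Rarres2*, which encodes the secreted chemerin, by 1.87 (adjusted p = 0.0091) and *Kcnb2*, a potassium channel gene, by 1.82 (adjusted p = 0.00524). *Lgals1*, the galectin-1 gene, had 540 and 521 CPM in control libraries against 1226 and 1273 CPM in *Ets1* eKO (1.30, SE 0.157, adjusted p = 0.00242). *Col1a2*, a fibrillar collagen chain, rose by 1.26, *Gpc6*, a glypican, by 1.19 and *Mgp*, an inhibitor of calcification, by 0.89 (adjusted p = 0.00603, 0.0116 and 0.0213). *Col1a2* was the 1 of 12 tested fibroblast and mesenchyme genes to pass, beside list sums of 776 and 998 CPM in control libraries against 936 and 1152 CPM in *Ets1* eKO that overlapped, and the part of such cells in its rise was not tested.

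**Figure D4:**
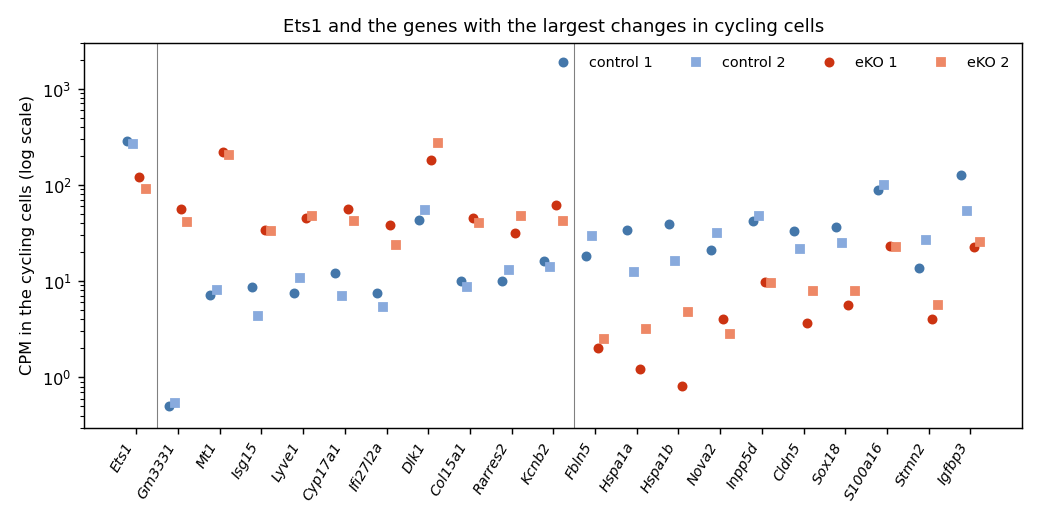
CPM per library (log scale) in the cycling members for *Ets1* and the genes with the largest changes in each direction, 1 point per library. In each gene drawn, the 2 *Ets1* eKO libraries lie on the same side of the 2 controls.

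Among the genes that fell, several mark or shape endothelium. *Fbln5*, an elastic fibre protein gene, had 18.2 and 29.1 CPM in control libraries against 2.02 and 2.52 CPM in *Ets1* eKO (-3.27, SE 0.402, adjusted p = 0.0026). *Cldn5*, the tight junction claudin of endothelium, had 33.4 and 21.6 CPM in control libraries against 3.63 and 7.87 CPM in *Ets1* eKO (-2.14, SE 0.356, adjusted p = 0.0159). *Cldn5* stood at 202 to 354 CPM in the coronary-type gate. In non-cycling mural cells it stood at 5.83 and 3.89 CPM in control libraries against 4.23 and 2.97 CPM in *Ets1* eKO. In members with no *Fabp4* UMI, an alternative added after seeing the data, its change was -1.60 and did not pass (adjusted p = 0.254). *Sox18*, a SoxF transcription factor of vascular identity, fell by 2.09 (adjusted p = 0.00699) and *Inpp5d*, the phosphatase SHIP1, by 2.17 (42.5 and 48.0 to 9.68 and 9.45 CPM, adjusted p = 0.00088). *S100a16*, a calcium-binding protein gene, fell by 1.98 (87.6 and 99.2 to 23.0 and 22.4 CPM, adjusted p = 0.00035). *Nova2*, a splicing factor of neurons and endothelium, fell by 2.89 (adjusted p = 0.00273) and *Stmn2*, a microtubule destabiliser, by 1.94 (adjusted p = 0.0449, lost in 6 of 17 alternatives). *Robo1*, a Slit receptor, fell by 1.14 (adjusted p = 0.0116), and *Efnb2*, the arterial ephrin, by 0.73 (adjusted p = 0.0371, lost in 8 of 17 alternatives). *Cldn5*, *Robo1* and *Efnb2* were the 3 of 28 tested endothelial receptor and junction genes that passed, all lower, with a list median of -0.23. *Btnl9*, named after its values were seen, fell by 3.84 (21.8 and 16.7 to 1.21 and 1.26 CPM). Control levels of *Btnl9* were 128 and 116 CPM in the coronary-type gate and 5.41 and 2.73 CPM in non-cycling mural cells.

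*Igfbp3*, which binds insulin-like growth factors, fell by 1.83 (SE 0.317, adjusted p = 0.0197), from 126.6 and 52.8 CPM in the controls to 22.6 and 25.5 CPM in *Ets1* eKO. Its UMIs were unevenly spread: of 250 UMIs in control replicate 1, 77 came from 1 member and 55.6% from 3 of 148, and in control replicate 2 the leading 3 gave 46.9% of 98 UMIs. A UMI of it was present in 38 and 28 members of the controls (25.7% and 20.6%) and in 16.8% and 14.8% of those of *Ets1* eKO. The coronary-type gate held 363 and 337 CPM in the controls. In members with no *Fabp4* UMI the change was -0.59 (adjusted p = 0.557), and *Fabp4* itself stood at 60.2 and 60.4 CPM in the members of the controls and 93.1 and 97.3 CPM in those of *Ets1* eKO.

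Of 18 tested immediate early and heat shock genes, 6 fell and none rose, with a list median of -0.62, and DESeq2 called 3. *Hspa1a* (-3.26, adjusted p = 0.0159) and *Hspa1b* (-3.15, adjusted p = 0.0197) encode the inducible HSP70 and are near-identical, so their counts may be split between them. *Zfp36*, which destabilises short-lived mRNAs, fell by 1.66, *Fosb* by 1.13, *Fos* by 0.84 and *Egr1* by 0.74 (adjusted p = 0.0159, 0.0119, 0.0197 and 0.0371). *Fos* had 325 and 277 CPM in control libraries against 165 and 156 CPM in *Ets1* eKO. Lower levels were not particular to the members. Trabecular cardiomyocytes had 163 and 135 CPM of *Fos* in control libraries against 70.2 and 111 CPM in *Ets1* eKO, and 29.8 and 11.9 CPM of *Hspa1a* in control libraries against 1.82 and 1.84 CPM in *Ets1* eKO. Both genes were also lower in both *Ets1* eKO libraries than in both controls in the coronary-type and valve-type gates. The part of such a difference between whole libraries in the values of the members was not tested.

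Counts of calls in short lists stand against the 0.822% of all genes called in the members, at which a list of 0 calls is not apart from the rest. None of 40 S phase genes and none of 53 G2 and mitosis genes passed in the members in edgeR, nor in DESeq2, with medians of 0.04 and 0.22, and 0 and 6 had an unadjusted p under 0.05 in edgeR. The G2 and mitosis list sum was 9687 and 9635 CPM in control libraries against 10107 and 11559 CPM in *Ets1* eKO, so that the groups did not overlap. Members with exactly 2 *Top2a* and *Mki67* UMIs held 5333 CPM of the list in *Ets1* eKO replicate 2, whose members had the lowest median depth, against 2274 to 2863 CPM in the other libraries, and those with 4 or more held 13187 against 11008 to 11583 CPM. The part of depth and of the fixed minimum of 2 UMIs in this sum was not tested. *Btg2*, an anti-proliferative gene, was the 1 of 26 tested G1 cyclin and CDK inhibitor genes to pass, at 208 and 149 CPM in control libraries against 73.4 and 78.1 CPM in *Ets1* eKO (-1.17, adjusted p = 0.00742). *Btg2* was lower in *Ets1* eKO in the other gates too, with 393 and 295 against 180 and 191 CPM in the coronary-type gate, 345 and 241 against 133 and 99.7 CPM in the valve-type gate, and 89.9 and 60.1 against 35.5 and 40.9 CPM in trabecular cardiomyocytes. *Cdkn1c*, the most abundant of that list, stood at 4467 and 4859 CPM in control libraries against 6158 and 7087 CPM in *Ets1* eKO without passing (0.57, SE 0.152, adjusted p = 0.127; it passed in 5 of 17 alternatives), and *Ccnd2* had 0.48 (adjusted p = 0.237).

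In the lists of Notch genes and of secreted growth factors and matrix, *Dlk1* and *Mgp* passed. *Dlk1* was the 1 of 19 tested Notch genes to pass. *Dll4*, the endothelial Notch ligand, had 31.4 and 25.9 CPM in control libraries against 10.1 and 16.1 CPM in *Ets1* eKO (-1.04, SE 0.266, adjusted p = 0.113; it passed in 3 of 17 alternatives, with log2 values of -1.45 to -0.58), *Notch1* had -0.18 (adjusted p = 0.646) and *Rbpj*, the nuclear partner of Notch, 0.07 (adjusted p = 0.907). *Nrg1*, neuregulin 1, had 167 and 232 CPM in control libraries against 145 and 201 CPM in *Ets1* eKO, which overlap (-0.14, SE 0.196, adjusted p = 0.836). *Mgp* was the 1 of 36 tested genes to pass in the list of secreted growth factors and matrix, which had a median of -0.01. Its call was lost in 3 of 17 alternatives (without either control replicate and with the replicate block). Matrix genes outside that list, such as *Col15a1* and *Fbln5*, passed as given above. *Hmcn1*, a hemicentin, had -0.61 (adjusted p = 0.188, passing in 3 of 17 alternatives), *Slit2* -0.30 (adjusted p = 0.508), *Col18a1* -0.05 (adjusted p = 0.945) and *Ptn*, pleiotrophin, 0.79 (adjusted p = 0.0736, passing in 5 of 17). Of 19 tested genes that the study names for the endocardium, 9 were higher and 1 lower, and since the study chose them on these samples their direction is not independent evidence.

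*Ets1* was the 1 of 15 tested ETS factors and *Sox18* the 1 of 17 SoxF, Klf and Gata factors to pass. None of 13 genes of the mitochondrial genome passed in the main edgeR fit or in DESeq2 (4 at an unadjusted p under 0.05 in edgeR). *mt-Co3* passed in 5 of 17 alternatives and *mt-Atp6* in 1. The sum of the 13 was 33944 and 35123 CPM in control libraries against 26625 and 26900 CPM in *Ets1* eKO, with a list median of -0.25. The 9 nuclear respiratory chain genes were taken from a heatmap of the study, made on these samples. Their shared direction is therefore not independent evidence. All had fitted values above 0, with a median of 0.33, and none passed (3 at an unadjusted p under 0.05 in edgeR, and 0 calls in DESeq2). None of 18 glycolysis genes passed in edgeR or DESeq2 (4 at an unadjusted p under 0.05). Among 15 neural-type genes, *Gpc6* was higher and *Opcml*, a cell adhesion gene, lower (-1.39, adjusted p = 0.0119). *Tnni1*, a troponin of fetal cardiomyocytes, rose in the members (1.32, adjusted p = 0.00928) as the 1 of 13 cardiomyocyte genes to pass, and the median of that list was 0.63. Its sum was 1045 and 548 CPM in control libraries against 960 and 1390 CPM in *Ets1* eKO, so the groups overlapped, and the part of cardiomyocyte RNA in these values was not tested.

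The third question was whether *Ets1* eKO changed cycling cells in another way than the non-cycling cells beside them. In non-cycling cells 413 of 12662 genes passed (3.26%), 195 higher (1.54%) and 218 lower (1.72%), or 174 and 370 when scaled by total counts, on summed depths of 5135041 to 7205547 UMIs per library that exceeded those of the members. Both classes come from the same libraries, so an overlap of their calls is not read as a result. A joint fit of both classes tested the difference of the changes itself, and 20 of 12556 genes passed (0.159%), with 6 more positive (0.0478%) and 14 more negative (0.112%) in cycling cells. DESeq2 called 0 genes, with 138 at an unadjusted p under 0.05. By lists, the S phase genes had a median of 0.44 in non-cycling cells against 0.04 in the members, and 39 of 40 differences were below 0. The G2 and mitosis genes had 0.62 against 0.22, with 45 of 53 differences below 0. No difference in these lists passed. In gated cells with no *Top2a* or *Mki67* UMI, the S phase list stood at 1286 CPM in *Ets1* eKO replicate 2. It stood at 809 to 1047 CPM in the other libraries. The part of depth was not tested.

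*Dlk1* was among the 20. Its non-cycling level was 113 and 81.6 CPM in control libraries against 228 and 290 CPM in *Ets1* eKO (1.47), so its change was larger by 0.80 in cycling cells (SE 0.16, adjusted p = 0.037). Control members held less *Dlk1* than control non-cycling cells, while the *Ets1* eKO classes stood close together. The call was lost in 5 of 14 alternatives, among them without control replicate 1 and without *Ets1* eKO replicate 2. *Meg3* went the other way, with a smaller rise in cycling cells (difference -0.84, SE 0.106, adjusted p = 0.00068), from 77.6 and 91.5 to 271 and 304 CPM in non-cycling cells, and it was lost in DESeq2 alone. *Igfbp3* stood at 24.0 and 21.2 CPM in control libraries against 20.1 and 24.3 CPM in *Ets1* eKO in non-cycling cells (0.04, adjusted p = 0.925), and its difference between classes was -1.88 (adjusted p = 0.0017), with the uneven spread of its UMIs over the control members given above. *Ets1* (-0.03), *Mt1* (-0.17), *Gm3331* (0.62) and *Lgals1* (-0.38) had differences that did not pass (adjusted p = 0.961, 0.939, 0.927 and 0.196).

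**Figure D5:**
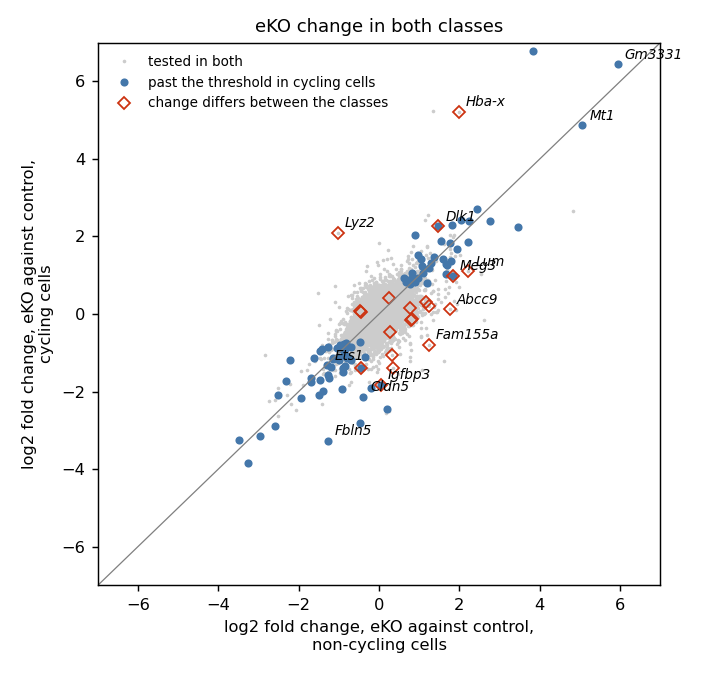
Fitted log2 fold change of *Ets1* eKO against control in non-cycling (horizontal) and cycling (vertical) mural endocardium, 1 grey point per gene tested in both, filled blue where called in cycling cells and with a red diamond where the change differed between classes, with the line of equal change. *Dlk1* (1.47 in non-cycling cells) lies above the line of equal change and *Igfbp3* (0.04 and -1.83) below it, and both classes share their libraries.

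The ETS core letters CCGGAA were searched on either strand in the 250 bases before the start of the changed genes. They were in 3 of 39 matched genes that fell (7.69%), 4 of 22 that rose (18.2%) and 26.7% of the tested genes. Nothing follows for *Ets1* binding, which can occur elsewhere and with other letters.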

How the data were processed

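Single cells of E14.5 ventricles from 2 control and 2 *Ets1* eKO libraries, 3 pooled ventricles each, were sequenced with 10x 3' chemistry. The authors deposited raw UMI counts per gene and barcode (submitters' notes: Cell Ranger 7.1.0, Seurat 4.3.0, mm10). The study's methods name CellBender for ambient RNA, and whether it was applied before deposit is not given in the sources used here. Members followed the stated counts, and members and gene lists were chosen with earlier results of these data known. Where the study tested single cells, counts were here summed per library and class, scaled to CPM and tested with edgeR 4.0.16 in R 4.3.3 (quasi-likelihood, TMM, filterByExpr, Benjamini-Hochberg adjustment at 0.05), eKO against control. The joint fit took library, class and class by condition over 8 sums. Shares used cells thinned to 4000 UMIs (seed 0) and exact permutation over libraries, with Clopper-Pearson 95% intervals. The fit was also run on simulated sums with a fixed dispersion and no effect of library, which does not measure its error on these data. Depth was 1854667 to 3176434 UMIs per library of members.

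Named were *Ets1*, gate genes, genes the study names for endocardium, the 10 largest changes in each direction (groups apart, at least 20 CPM in the higher group), the 5 largest differences between classes, up to 4 called members of each list (or the 2 most abundant where fewer than 2 passed), and the 8 highest and 8 lowest genes of cycling over non-cycling cells with at least 50 CPM. Doublets were scored by the share of simulated doublets among 50 neighbours (0.8% marked per 1000 barcodes) and kept, with their removal as an alternative. Further settings tried were scaling by total counts, DESeq2 1.42.0, keeping genes of low counts, 1 or 3 *Top2a* and *Mki67* UMIs and a stricter mural gate. Another took the study's limits on genes (200 to 7000) and on mitochondrial UMIs (20%), without its hemoglobin limit. Other depths and, as cycling measures, the S phase list or the G2 and mitosis list were tried too. So were sex as a term, replicate number as a block and each library left out. Added after seeing the data were thinning by 1 factor, a crossed block, members with no *Fabp4* UMI and a globin limit of 2%. Python 3.11.15 with numpy 2.4.6, scipy 1.17.1, pandas 2.3.3 and matplotlib 3.10.9 did the rest.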

Additional observations from a re-analysis of the deposited data

Results flagged for a closer look

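Each result here was picked out because the change from control to *Ets1* eKO differed between cycling and non-cycling mural endocardium in the joint edgeR fit at an adjusted p of 0.05, and each value is that difference of log2 changes, positive where the change was more positive in cycling cells. *Dlk1* (0.80), *Wipf3* (0.51), *Diaph2* (0.57) and *Malat1* (0.19) were more positive, and lost the call in 5, 8, 6 and 7 of 14 alternatives. *Hba-x*, an embryonic globin, had 3.21 and *Lyz2*, a lysozyme of myeloid cells, 3.15. Of the 914 *Hba-x* UMIs in the members of *Ets1* eKO replicate 2, 311 came from 1 member and 84.5% from 3 of 391, and of its 87 *Lyz2* UMIs 79.3% came from 3. *Hba-x* was at -0.53 with globin limited to 2% of UMIs, and *Lyz2* at -0.0088 without marked doublets.

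More negative in cycling cells were *Fam155a* (-1.96), *Igfbp3* (-1.88), *Clec1b* (-1.78) and *Abcc9* (-1.63). *Eln* (-1.31) and *Lum* (-1.13) were also lower in this sense and lost the call without marked doublets, and *Dcn* (-0.85) lost it in 8 of 14 alternatives. *Lum* and *Kitl* lost it in 7 each, *Spc24* and *Clec1b* in 6, *Fbn2* in 5, *Abcc9* and *Opcml* in 4, *Igfbp3*, *Fam155a*, *Nckap5* and *Eln* in 3 and *Meg3* in 1. *Lum* and *Dcn* are known from fibroblasts, and the summed fibroblast list stood at 1.30 and 1.13 times its non-cycling level in the members of the controls and at 1.09 and 0.900 times in those of *Ets1* eKO. Further values were *Fbn2* (-0.62) and *Spc24* (-1.05), of the kinetochore, *Erbb4* (-0.95; 0.14 without marked doublets and 0.28 with at least 1 UMI), a neuregulin receptor, *Nckap5* (-0.92), *Opcml* (-0.89), *Meg3* (-0.84) and *Kitl* (-0.74), the ligand of KIT. DESeq2 called none of the 20. Without control replicate 1, 14 of the 20 lost the call.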

How the results depend on the processing

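Of 35 named genes called in cycling cells, 21 passed in each alternative where they were tested, among them *Ets1*, *Gm3331*, *Mt1*, *Dlk1*, *Lgals1* and *Isg15*. Calls lost in 3 or more alternatives were those of *Efnb2* (8), *Stmn2* (6), *Rian* (4), *Igfbp3*, *Mgp* and *Zfp36* (3 each). *Igfbp3* was lost with 1 *Top2a* or *Mki67* UMI, with no *Fabp4* UMI and with sex as a term. With 2 libraries per group, leaving out 1 assumes that the lone library varies like the other group, and depth limits genes under a few CPM. Causes were not tested.

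The difference in cycling share at 4000 UMIs (7.92 points) was 3.46 at 2000 UMIs, 14.1 at 6000 UMIs, which left out 1267 cells of *Ets1* eKO replicate 2, and 14.4 by the S phase list, and 2.92 to 12.9 with a library left out. With all UMIs it was 2.93 to 6.78. The difference in S phase members (1.15 points) was -1.27 with all UMIs, -0.587 without control replicate 1, -0.776 with *Ets1* eKO replicate 1 absent and up to 3.07 in the other left-out cases.

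The 89 calls in cycling cells became 53 with DESeq2 (49 shared), 59 with at least 3 *Top2a* and *Mki67* UMIs, 365 with no filter on low counts and 84 to 216 with a library left out (highest when *Ets1* eKO replicate 1 was absent, 176 when replicate 2 was). The 413 in non-cycling cells became 1147 with no filter and 171 to 1920 with a library left out (control replicate 2 and *Ets1* eKO replicate 1 absent), 248 without control replicate 1 and 654 with *Ets1* eKO replicate 2 absent. The 20 differences between classes became 0 with DESeq2, 38 and 9 with at least 1 and 3 UMIs, 73 without doublets, 83 with no filter, 32 with total count scaling and 14 to 53 with a library left out (control replicate 1 and *Ets1* eKO replicate 1 absent), and 35 without control replicate 2.

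Replicate numbers are shared by the groups, but same-numbered libraries did not deviate together (correlation of deviations -0.01 over genes tested in cycling cells, -0.25 over the 3820 with at least 50 CPM). As a replicate block they gave 118 calls in cycling and 1011 in non-cycling cells, and mean paired differences of 7.92 points in cycling share and 1.15 points in S phase members. A crossed replicate block, added after seeing the data, gave 432 and 1093.

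Over named genes 1163 values kept direction and call, 133 lost and 25 gained a call, and 27 changed direction, none of the latter called in the fit of cycling cells. With sex as a term these were *Rbpj* (-0.038), *Col18a1* (0.038), *Xist* (-0.23), *Dut* (-0.0041), *Tyms* (-0.074), *Ube2s* (-0.010), *Igf2* (0.081), *Gapdh* (-0.020) and *Ldha* (-0.049). With a library left out, the lowest and highest values had opposite signs for *Col18a1* (-0.16 to 0.067), *Dut* (-0.054 to 0.50), *Tyms* (-0.22 to 0.55), *Ube2s* (-0.079 to 0.52), *Igf2* (-0.13 to 0.057), *Gapdh* (-0.025 to 0.39), *Ldha* (-0.092 to 0.26), *Nr2f2* (-0.13 to 0.0075), *Nrg1* (-0.41 to 0.15) and *Rbpj* (-0.0052 to 0.15). *Igf2* was 0.020 with at least 3 UMIs and *Rbpj* -0.10 with no *Fabp4* UMI. Of the differences between classes, *Lyz2* was -0.26 and *Erbb4* 0.28 with at least 1 UMI, *Lyz2* -0.0088 and *Erbb4* 0.14 without doublets, and *Hba-x* -0.53 with globin limited to 2%.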
